A study of Mus musculus with 16 samples.

Results

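The F-box genes described here are those whose symbols begin with Fbxl, Fbxo or Fbxw followed by a number, without Fbxo11, Fbxo21, Fbxo30, Fbxo31 and Fbxo32. They number 72 of the 47643 genes in the expression table, of which 18 are Fbxl, 32 Fbxo and 22 Fbxw genes. RNA was sequenced from the tibialis anterior, a fast muscle of the lower leg, of 16 C57BL6/J mice labelled as male, in 4 groups of 4 mice. These were WT or UBR4 mKO animals, aged 6 or 24 months. In UBR4 mKO mice both floxed Ubr4 alleles are cut by a Cre recombinase that tamoxifen induces and the ACTA1 promoter restricts to skeletal muscle, so that the large ubiquitin ligase UBR4 is lost from myofibers and not from other cells of the muscle. WT mice carry the floxed alleles without Cre, and mice of both genotypes received tamoxifen. The study compared the genotypes to learn how loss of UBR4 acts in muscle at a young and at an old age. Expression is given as TPM, a share of all transcripts that corrects for transcript length and sums to 1000000 in every sample. The number of reads behind a value is therefore unknown.

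Before any result, some libraries need describing. Ubr4 mRNA was 11.1, 15.7, 13.2 and 9.09 TPM in WT and 4.98, 4.92, 5.51 and 6.54 TPM in UBR4 mKO muscles at 6 months, and 17.2, 16.98, 17.8 and 21.1 TPM against 10.1, 14.6, 4.28 and 7.63 TPM at 24 months. The groups did not overlap at either age (exact 2-sided permutation test, p = 0.0286, the smallest that 4 against 4 samples allow). Although all mice are labelled as male, Xist, the RNA of the inactive X chromosome, was at 0.711 to 23.8 TPM in the 6-month libraries and at 0 to 0.0253 TPM in the 24-month libraries. Xist thus separated the ages in both genotypes, and its difference cannot be told apart from age in any comparison of the ages. UBR4 mKO replicate 4 at 6 months had the highest Xist value, and its Ddx3y, a gene of the Y chromosome, was at 0.0730 TPM. The same library also stood apart from the rest of its group in slow fiber genes, with Myh7, a slow myosin heavy chain, at 6.83 against 0.440 to 0.790 TPM, Tnnt1 at 18.0 against 4.43 to 7.95 TPM and Myl2 at 18.2 against 2.42 to 6.63 TPM, and the part of this in the F-box values was not tested beyond fits without it. Ddx3y was at 13.2 to 22.6 TPM in the other UBR4 mKO libraries of 6 months, at 2.29 to 13.3 TPM in the 4 WT libraries of that age and at 13.5 to 30.5 TPM at 24 months. The WT group of 6 months, which enters both the genotype comparison at 6 months and the age comparison in WT, was thus mostly lower, with a range that met that of UBR4 mKO, and the part of this in the results was not tested beyond a fit with a Y-linked covariate. UBR4 mKO replicate 3 at 24 months lay far below the rest of its group in Fbxl17, Fbxl20 and Fbxo38. Muscle markers identified the tissue: the 7 markers summed to at least 60200 TPM in every sample.

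An F-box protein is the interchangeable part of an SCF ubiquitin ligase, which is built from SKP1, the cullin CUL1, the RING protein RBX1 and an F-box protein. The F-box binds SKP1, and the rest of the protein selects the substrate that is marked with ubiquitin. Fbxw proteins do so through WD40 repeats and Fbxl proteins through leucine-rich repeats, whereas Fbxo proteins carry other domains. In skeletal muscle the family is best known for atrogin-1, the product of Fbxo32, which is among the genes set aside above. Attachment of NEDD8 to the cullin switches the ligase on, its removal by the COP9 signalosome switches it off, and CAND proteins exchange the F-box proteins. The data here are mRNA levels, and neither the proteins nor the activity of the ligases was measured in them.

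Upstream sequences of a pair of members are printed because these genes carry the main features of the expression data: Fbxo40 was the most abundant member, and Fbxl4 was called higher with age in both genotypes. Each line holds the 250 bases before the start of the gene, 5′ to 3′ on the gene's strand, from RefSeq on GRCm38.p6, with capitals for matches to the motifs searched. The window is chr16:36990468-36990717 on the minus strand for Fbxo40 and chr4:22357293-22357542 on the plus strand for Fbxl4.
Fbxo40: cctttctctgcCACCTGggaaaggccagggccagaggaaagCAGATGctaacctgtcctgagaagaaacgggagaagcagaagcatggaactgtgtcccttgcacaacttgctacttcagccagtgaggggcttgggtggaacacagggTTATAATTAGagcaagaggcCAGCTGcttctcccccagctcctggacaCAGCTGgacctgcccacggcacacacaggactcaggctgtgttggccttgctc
Fbxl4: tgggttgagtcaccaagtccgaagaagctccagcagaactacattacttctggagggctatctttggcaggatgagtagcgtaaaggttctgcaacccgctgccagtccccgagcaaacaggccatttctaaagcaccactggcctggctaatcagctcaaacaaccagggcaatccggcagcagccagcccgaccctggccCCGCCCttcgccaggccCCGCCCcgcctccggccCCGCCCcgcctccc
The motifs were the E-box CANNTG, its form CACGTG, the cAMP response element TGACGTCA, the GC box GGGCGG and the MEF2 site, on both strands, and every CACGTG is also a CANNTG. The Fbxo40 window held 4 E-boxes and 1 MEF2 match and no GC box, with 2 CpG dinucleotides. The Fbxl4 window held 3 GC boxes, read here as CCGCCC, no E-box and no MEF2 match, with 13 CpG dinucleotides. RefSeq windows were found for 54 members, 28 of them among the members tested below. Of the 41 windows of these 28 genes, 29 (70.7%) held CANNTG against 66.2% of all 32851 windows, and 20 (48.8%) held GGGCGG against 32.7%. MEF2 matches occurred in 1 of the 41 windows (2.4%), that of Fbxo40, against 2.9% of all windows, and CACGTG and TGACGTCA occurred in 0 of them against 6.0% and 1.5%. A match describes letters and does not show that a factor binds there. Other GC-rich windows were common among members, with a median of 13 CpG dinucleotides against 6 over all windows.

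Tibialis anterior muscles expressed some F-box receptors strongly and others not at all. A mean of at least 1 TPM over the 16 samples, the minimum for testing, was reached by 37 of the 72 members: 12 of 18 Fbxl, 18 of 32 Fbxo and 7 of 22 Fbxw genes. Fbxo40, a muscle-specific receptor whose known substrate is the insulin receptor substrate IRS1, was first at a mean of 107 TPM. It took up 22.2% to 26.9% of the summed TPM of all members in a sample. Next came Fbxw5, a receptor linked to centrosome duplication, at 36.3 TPM, Fbxo9 at 26.2 TPM, Fbxo3 at 23.3 TPM and Fbxw11, also called beta-TrCP2, at 21.4 TPM. In every sample the level of Fbxo40 was above that of every other member. The next places were not separated by the spread between samples: Fbxo9 ranged from 20 to 34.5 TPM and Fbxo3 from 18.0 to 27.4 TPM.

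**Figure D1:**
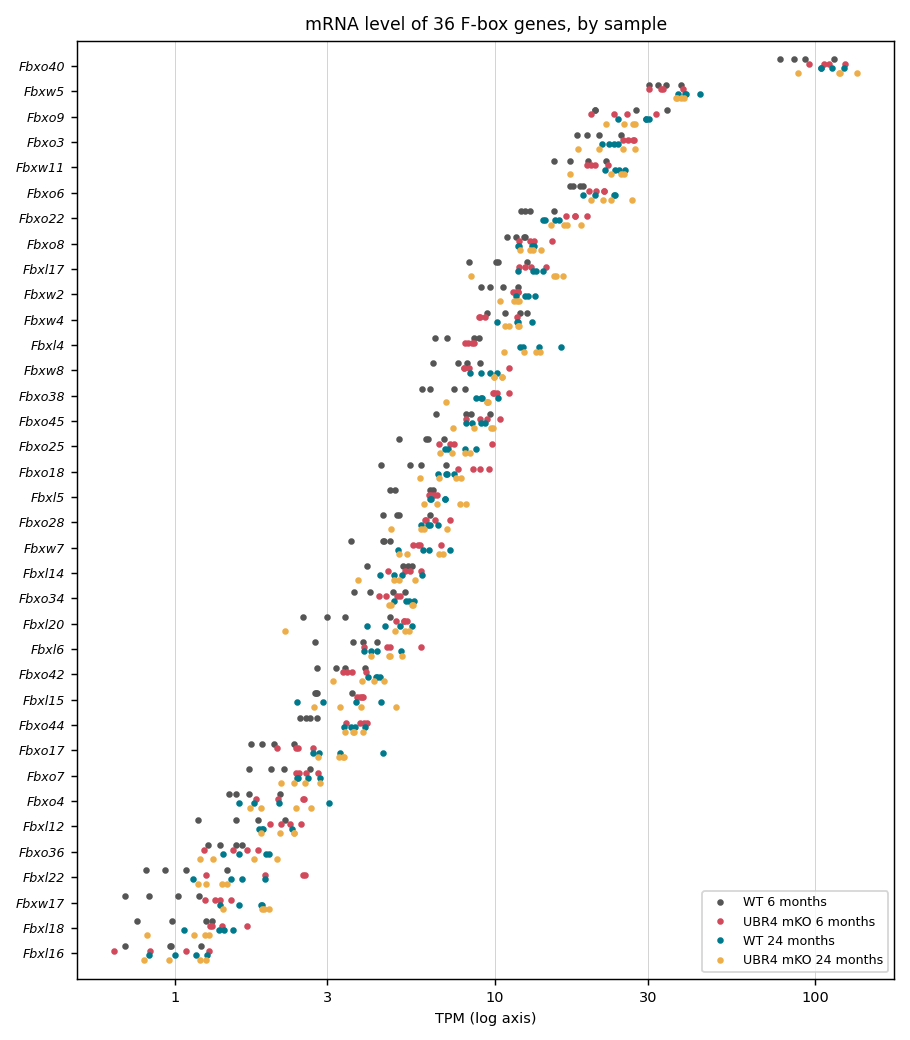
Levels of 36 of the F-box genes tested, in TPM on a log axis, ordered by mean level, with 1 point for each of the 16 samples and colours for the 4 groups. Fbxo40 stands alone at 77.5 to 135.4 TPM, and most points of the 4 groups lie close together compared with the distances between genes.

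The members under the minimum were 35. Of these, 23 had some signal, led by Fbxo33 at a mean of 0.988 TPM, Fbxo10 at 0.9603 TPM and Fbxw9 at 0.821 TPM, and 12 were listed at 0 in every sample. All 12 belong to a cluster of 13 Fbxw genes on chromosome 9, at 109139447 to 109790670 on GRCm38, a stretch of 651.2 kb. The 13th gene of the cluster, Fbxw13, was above 0 in 1 sample, at 0.0565 TPM. Genes of this cluster are best known from the oocyte. Their transcripts are alike, Fbxw16 matching Fbxw23 over 1355 bases at 93.9% identity, for example, and how the authors counted reads that fit several genes is not stated. Fbxw17 has a number from the same series but lies on chromosome 13, and it was expressed at a mean of 1.44 TPM.

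At 6 months, loss of UBR4 went with higher TPM of many F-box genes, though of a smaller share of them than of all genes, in the TPM as deposited, and 2 of them were also called higher with median-of-ratios scaling. UBR4 mKO muscles had 12 of the 37 members (32.4%) called higher and 0 called lower, where called means a limma adjusted p-value under 0.05 over all genes tested in the fit of all 16 samples with equal weights, unless another setting is named. Over all 10628 genes tested, 43.7% were called higher. The called members were Fbxl22, Fbxl20, Fbxo18, Fbxo38, Fbxw17, Fbxo44, Fbxw7, Fbxo22, Fbxl6, Fbxo25, Fbxo3 and Fbxo28, with fold changes on the log2(TPM + 0.1) scale, the scale of all fold changes and standard errors (SE) below, from 0.86 down to 0.32. The median log2 fold change was 0.26 over the members and 0.33 over all genes tested. Groups without overlap were found for 10 of the 37 members, all higher in UBR4 mKO, or 27.0% against 39.9% of all genes tested.

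The size and the calling of these changes depended on how the samples were scaled. Of the 12 called members, Fbxo28 and Fbxo3 also changed sign with median-of-ratios scaling, to -0.03 and -0.01, and the others kept their sign. Mitochondrially encoded genes took up 52.6% to 59.7% of the TPM of WT and 46.1% to 49.8% of that of UBR4 mKO muscles at 6 months, and since TPM sum to a fixed total, the other genes share what these leave. With median-of-ratios scaling, which centres the samples on their typical gene, the median of all genes became -0.02 and that of the members -0.08. Called members were then 2 higher, Fbxo18 and Fbxo38, and 6 lower: Fbxl14, Fbxo34, Fbxo42, Fbxo9, Fbxw4 and Fbxw5. The shares of all genes called under this scaling were 6.66% higher and 10.2% lower. After the mitochondrially encoded genes had been left out, 4 members were called, Fbxo18 and Fbxo44 as higher and Fbxw4 and Fbxw5 as lower, against 9.07% of all genes higher and 5.87% lower. Fbxo18 was the member called higher under all 3 scalings, and Fbxw4 and Fbxw5 were called lower under both of the added scalings while neither was called in the TPM as deposited with equal weights. Array weights called Fbxw4 lower there too, at -0.33 (adjusted p = 0.00134). Without UBR4 mKO replicate 4, the library with the highest Xist, 6 members were called (Fbxl22, Fbxo18, Fbxo22, Fbxo38, Fbxo44 and Fbxw7), against 29.1% of all genes called higher. Without WT replicate 3 or 4 of 6 months the count was 6 or 5, against 33.4% and 24.7% of all genes. It was 15 without UBR4 mKO replicate 3 of 24 months, with Fbxl12, Fbxl17 and Fbxo6 added, against 53.6% of all genes. With a Y-linked covariate, an alternative chosen after seeing the data, the same 12 members were called, against 4567 of 10628 genes called higher.

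At 24 months, no F-box gene differed detectably between the genotypes. The count called was 0 of 37, against 0.630% of all genes tested, and 0 members had groups without overlap, against 5.80% of all genes. Limma gave 0 members with an unadjusted p under 0.05, against 10.1% of all genes, and 2 with array weights, against 16.6%. Kruskal-Wallis with Dunn's test called 0 of all 10628 genes, so it could call no member, and gave 0 members at that unadjusted level, against 4.02% of all genes. The median log2 fold change was -0.02 over the members and 0.01 over all genes, and the extremes were Fbxl18 at -0.25 and Fbxo22 at 0.16. The count was also 0 without UBR4 mKO replicate 3 and under the other scalings. Median-of-ratios scaling gave 2 members with an unadjusted p under 0.05, against 13.4% of all genes, and leaving out the mitochondrially encoded genes gave 1, against 11.9%. The standard error of a fold change lay between 0.09 and 0.23 on the log2 scale over the members. By the same criterion Ubr4 itself was not called at 24 months, at -1.12 (SE 0.26, limma adjusted p = 0.0598), although its groups did not overlap.

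**Figure D2:**
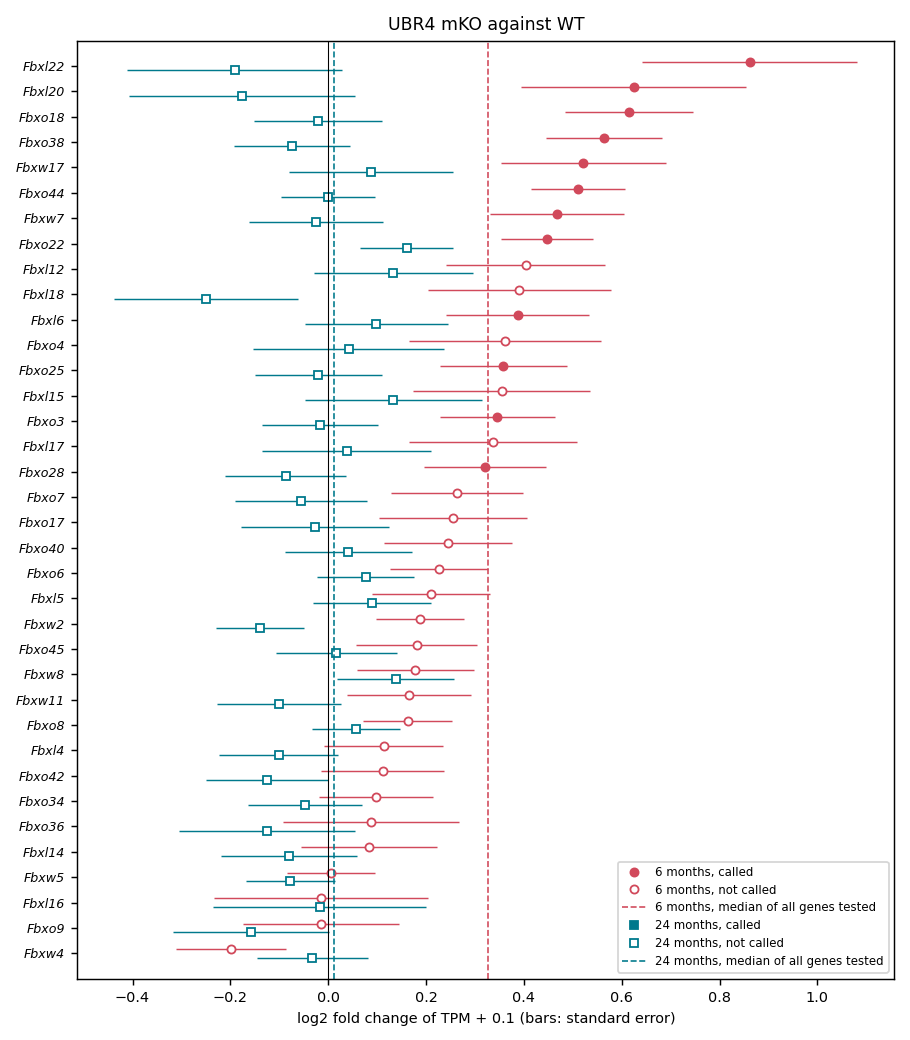
Log2 fold change of TPM + 0.1 for UBR4 mKO against WT in 36 of the members tested, at 6 months (circles) and 24 months (squares), with bars for the standard error, filled symbols for called members and dashed lines for the median of all genes tested. The 12 called members are all at 6 months and reach 0.86, and at 24 months the values lie between -0.25 and 0.16.

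With age, some F-box mRNAs were called higher in WT muscles, 2 of them also with median-of-ratios scaling, and Fbxl4 was also called higher in UBR4 mKO muscles. In WT, 9 of 37 members were called higher at 24 than at 6 months, against 24.0% of all genes, and 0 were called lower. They were Fbxw17, Fbxl4, Fbxo17, Fbxw7, Fbxo44, Fbxo38, Fbxw11, Fbxo42 and Fbxw2, from 0.79 down to 0.29, and the median was 0.27 over the members and 0.26 over all genes. Groups without overlap were found for 8 members, all higher with age, against 25.9% of all genes. Median-of-ratios scaling left 2 called, Fbxl4 and Fbxw17, against 4.44% of all genes called higher, and the members' median became 0.00. In UBR4 mKO muscles, Fbxl4 alone was called, as higher, against 2.45% of all genes called higher. With median-of-ratios scaling 3 were called there, Fbxl4 and Fbxw8 as higher and Fbxo18 as lower, against 5.97% of all genes higher and 5.30% lower. In the same comparison, 4 members had groups without overlap, against 12.9% of all genes: Fbxl4 and Fbxo17 were higher with age, and Fbxl18 and Fbxo38 were lower. Without UBR4 mKO replicate 4 of 6 months 2 members were called there, Fbxl4 and, as lower, Fbxl22, against 258 of 10628 genes called higher and 298 lower. The genotype comparison at 6 months and the age comparison in WT share the WT samples of 6 months. Without WT replicate 2 of that group 22 members were called with age in WT, against 45.7% of all genes called higher, without replicate 3 the count was 5, against 11.9%, and without replicate 4 it was 4, against 8.41%. Without WT replicate 1 or 4 of 24 months it was 5 or 4, against 11.9% and 9.91%. With the Y-linked covariate 9 members were again called, against 2039 of 10628 genes called higher, but Fbxw11, Fbxw2 and Fbxo42 were not among them and Fbxo25, Fbxw5 and Fbxw8 were. The count was 10 without UBR4 mKO replicate 4 of 6 months, against 23.7% of all genes, and 15 without UBR4 mKO replicate 3 of 24 months, against 37.6%, which added Fbxl17, Fbxl20, Fbxo6, Fbxo18, Fbxo25 and Fbxw5.

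**Figure D3:**
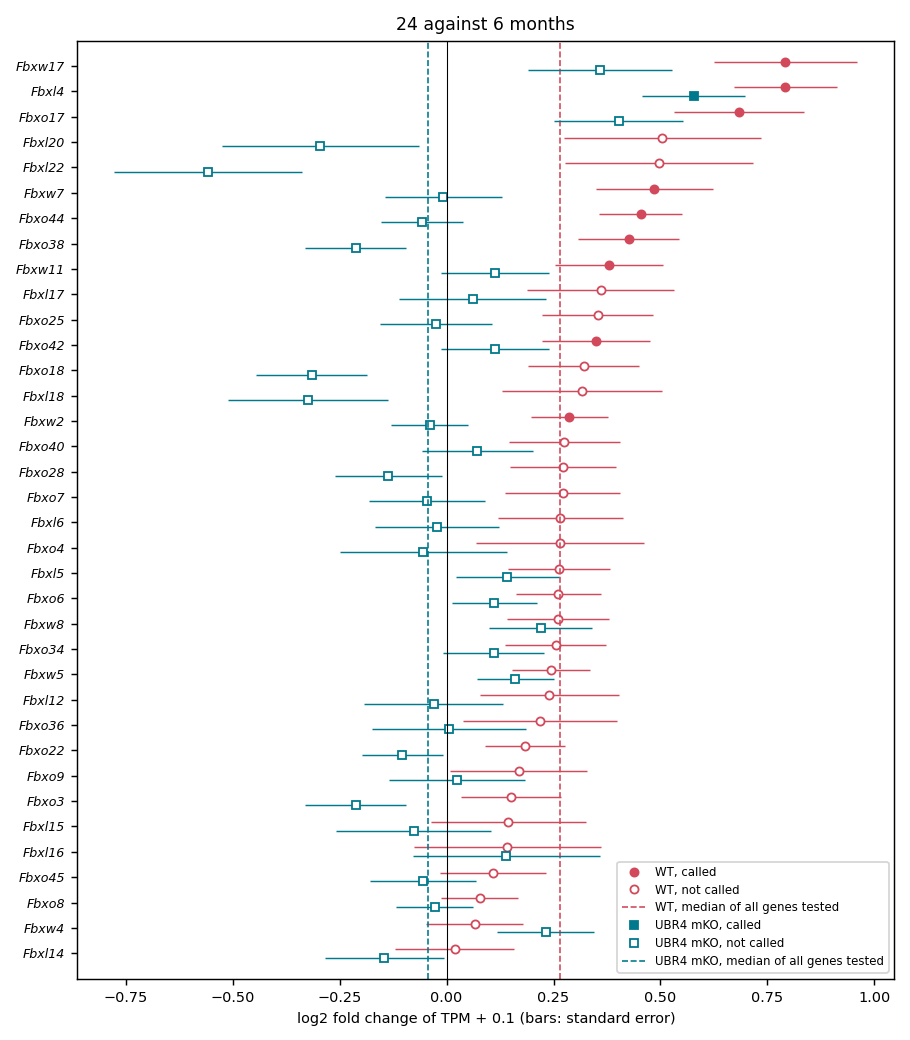
Log2 fold change of TPM + 0.1 for 24 against 6 months in 36 of the members tested, in WT (circles) and UBR4 mKO (squares), with bars for the standard error, filled symbols for called members and dashed lines for the median of all genes tested. Fbxl4 is called in both genotypes, at 0.79 in WT and 0.58 in UBR4 mKO.

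The difference between the genotype effects at the 2 ages was itself tested as an interaction. Fbxo38, at -0.64 (SE 0.17, limma adjusted p = 0.0401), and Fbxo44, at -0.51 (SE 0.14, limma adjusted p = 0.0417), had a smaller UBR4 mKO effect at 24 than at 6 months. These were 2 of the 37 members (5.41%), against 4.58% of all genes called in that direction. The median interaction was -0.28 over the members and -0.31 over all genes. Fbxo38 and Fbxo44 lay -0.33 and -0.20 from the median gene. Neither was called with median-of-ratios scaling, at -0.31 (adjusted p = 0.113) and -0.19 (adjusted p = 0.485), or after the mitochondrially encoded genes had been left out. Without UBR4 mKO replicate 4 of 6 months neither was called, and Fbxl22 was, at -1.26 (adjusted p = 0.0248). Without UBR4 mKO replicate 3 of 24 months both were called. Leaving out 1 sample at a time, the call was lost in 11 of 16 fits for Fbxo38 and in 13 of 16 for Fbxo44. Without WT replicate 2 of 6 months 8 members were called, against 23.1% of all genes called lower. The count was 0 without WT replicate 1 or 4 of either age, without UBR4 mKO replicates 1, 2 or 3 of 6 months and without UBR4 mKO replicate 2 of 24 months. In these fits 1.68% to 2.31% of all genes were called lower. It was 1 without WT replicate 3 of 6 months (Fbxl22), without WT replicate 3 of 24 months (Fbxo44) and without UBR4 mKO replicate 1 of 24 months (Fbxo38). The shares of all genes were then 2.59%, 3.62% and 4.61%.

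Of 5 receptors of muscle and insulin signalling tested, Fbxo25 alone was called, in UBR4 mKO at 6 months, where 43.7% of all genes were called higher. Fbxo40 was at 92.7, 114, 85.7 and 77.5 TPM in WT and 110.4, 95.7, 106 and 124 TPM in UBR4 mKO muscles at 6 months. At 24 months it was at 104, 113, 104 and 123 TPM in WT and 119, 119, 88.5 and 135 TPM in UBR4 mKO muscles. All 4 groups overlapped, and the log2 fold change was 0.24 (SE 0.13, limma adjusted p = 0.124) for UBR4 mKO at 6 months and 0.28 (SE 0.13, limma adjusted p = 0.111) for age in WT. Without WT replicate 2 of 6 months Fbxo40 was called higher in both, and array weights called it with age in WT. Fbxw5 was at 34.3, 38.1, 32.2 and 30.2 TPM in WT and 30.3, 32.9, 33.5 and 38.8 TPM in UBR4 mKO muscles at 6 months, and at 39.1, 39.4, 37.4 and 43.6 TPM and 37.1, 38.2, 38.9 and 36.7 TPM at 24 months. Its genotype difference at 6 months was 0.01 (SE 0.09, limma adjusted p = 0.958) in TPM as deposited, where the median gene stood at 0.33, and -0.35 (adjusted p = 0.00753) with median-of-ratios scaling. Fbxo9, a receptor for the mTOR-associated proteins TEL2 and TTI1, was at 27.5, 34.5, 20.6 and 20.6 TPM in WT and 20, 23.6, 25.8 and 31.8 TPM in UBR4 mKO muscles at 6 months. Its values at 24 months were 29.6, 24.2, 29.6 and 30.3 TPM in WT and 25.3, 27.3, 22.2 and 26.99 TPM in UBR4 mKO muscles. The 6-month groups of Fbxo9 covered nearly the same range, with a log2 fold change of -0.01 (SE 0.16, limma adjusted p = 0.94), and median-of-ratios scaling gave -0.37 (adjusted p = 0.0428). Fbxw8, which works with CUL7 on IRS1, and Fbxo25, the closest relative of atrogin-1 in the family, had means of 9.05 and 7.299 TPM. Fbxo25 was called higher in UBR4 mKO at 6 months, at 0.36 (SE 0.13, limma adjusted p = 0.0349), with overlapping groups, and at 0.01 (adjusted p = 0.955) with median-of-ratios scaling. Fbxw8 was not called in UBR4 mKO at 6 months, at 0.18, and with age in UBR4 mKO it was called with array weights and with median-of-ratios scaling, at 0.28 (adjusted p = 0.0366) against 0.22 in the TPM as deposited, and 33.4% of its exonic bases overlap an antisense gene. Reads from a gene and its antisense partner cannot be told apart here, since the use of strand in counting is not stated.

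Of the receptors of mitochondria and iron, Fbxl4 was called with age in both genotypes. FBXL4 sits in the outer mitochondrial membrane and restrains mitophagy by removing the receptors BNIP3 and NIX. At 6 months it was at 8.57, 8.93, 6.52 and 7.09 TPM in WT and 8.51, 8.05, 8.26 and 8.59 TPM in UBR4 mKO muscles. The 24-month values were 13.7, 12.3, 11.98 and 16.1 TPM in WT and 13.9, 13.4, 10.6 and 12.4 TPM in UBR4 mKO muscles. Every 24-month sample was above every 6-month sample, in both genotypes. Xist also split the samples by age, and the change of Fbxl4 with age cannot be told apart from that split. The log2 fold change with age was 0.79 (SE 0.12, limma adjusted p = 0.000422) in WT and 0.58 (SE 0.12, limma adjusted p = 0.00779) in UBR4 mKO muscles, or 0.53 and 0.62 above the median gene. It was called in both genotypes with median-of-ratios scaling, at 0.52 (adjusted p = 0.0023) and 0.63 (adjusted p = 0.000478), and after leaving out the mitochondrially encoded genes, at 0.60 (adjusted p = 0.00212) and 0.60 (adjusted p = 0.00258). Kruskal-Wallis with Dunn's test, the study's own kind of test, called 0 of all 10628 genes with age in either genotype, so its adjusted p of 0.12 and 0.384 for Fbxl4 do not bear on this gene in particular. Without UBR4 mKO replicate 4 of 6 months the change in UBR4 mKO was 0.59 (adjusted p = 0.0161). The genotypes did not differ detectably at 6 months, at 0.11 (SE 0.12, limma adjusted p = 0.433), or at 24 months, at -0.10 (SE 0.12, limma adjusted p = 0.891). Fbxl5, the iron sensor that removes the iron regulatory protein IRP2, and Fbxo7, which binds the proteasome regulator PI31 and is mutated in early-onset parkinsonism, were not called in any comparison with all 16 samples and equal weights. Without WT replicate 2 of 6 months both were called with age in WT. Fbxl5 had group means of 5.57 ± 0.9102, 6.39 ± 0.153, 6.64 ± 0.411 and 7.12 ± 0.986 TPM (SD, n = 4), in the order WT and UBR4 mKO at 6 months, then WT and UBR4 mKO at 24 months. Fbxo7 had 2.13 ± 0.395, 2.55 ± 0.189, 2.57 ± 0.2001 and 2.48 ± 0.295 TPM (SD, n = 4) in the same order.

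**Figure D4:**
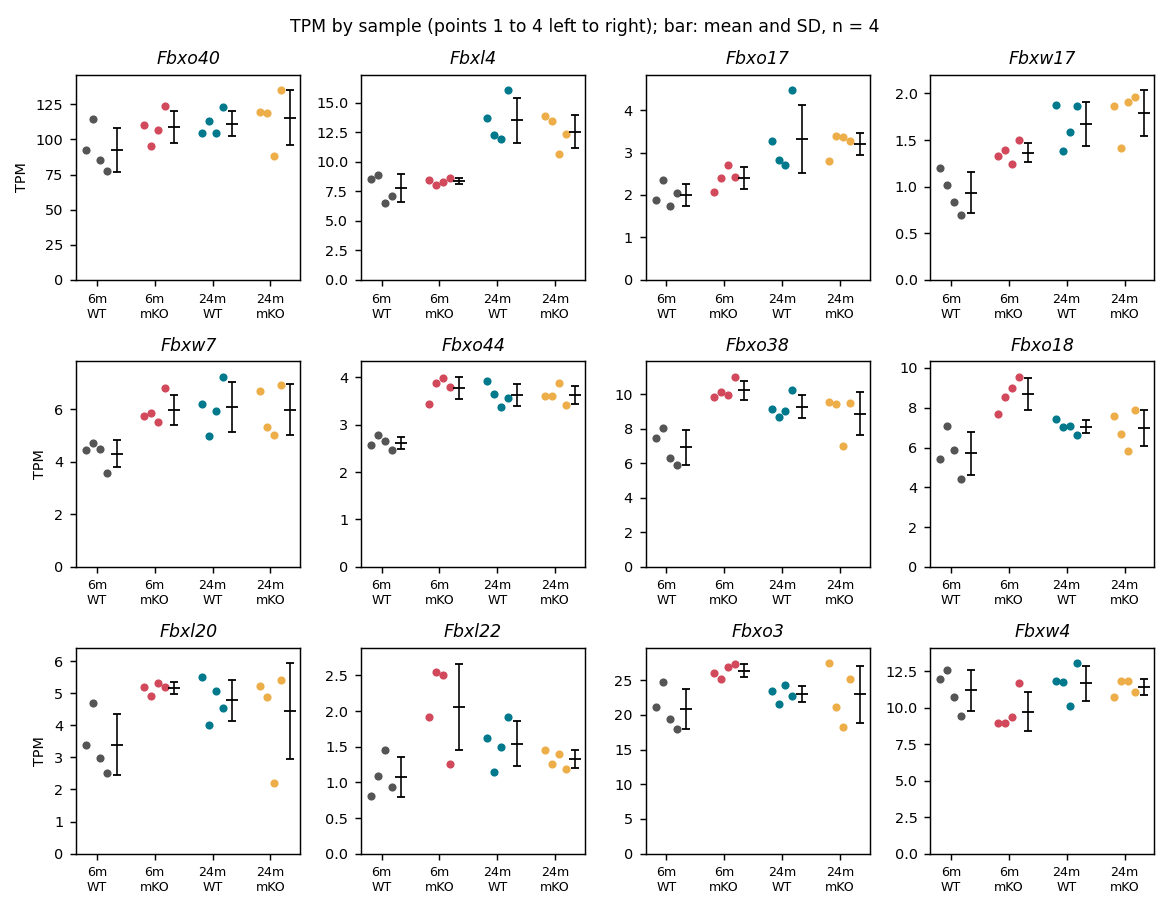
TPM of 12 members in every sample, with 1 point a mouse, colours for the 4 groups and a bar for the mean and SD (n = 4); all axes start at 0. Fbxl4 and Fbxo17 separate the ages in both genotypes, Fbxo44 is lowest in WT at 6 months, and Fbxo40 overlaps across all groups.

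Of 5 receptors of cell cycle and growth control tested, 1 was called in UBR4 mKO at 6 months and 2 with age in WT, where 43.7% and 24.0% of all genes were called higher. Fbxw7, which removes cyclin E, MYC and NOTCH, was at 4.46, 4.71, 4.5 and 3.56 TPM in WT and 5.73, 5.84, 5.53 and 6.805 TPM in UBR4 mKO muscles at 6 months. At 24 months it was at 6.21, 4.96, 5.95 and 7.25 TPM and 6.71, 5.33, 5.01 and 6.91 TPM, so that WT at 6 months was below every sample of the other groups. The log2 fold change was 0.47 (SE 0.14, limma adjusted p = 0.0133) for UBR4 mKO at 6 months and 0.49 (SE 0.14, limma adjusted p = 0.0201) for age in WT. With median-of-ratios scaling these became 0.12 (adjusted p = 0.384) and 0.22 (adjusted p = 0.145). Fbxw11, which recognises phosphorylated beta-catenin and I-kappa-B, was at 19.5, 22.2, 17.2 and 15.3 TPM in WT and 20.6, 19.98, 19.4 and 22.5 TPM in UBR4 mKO muscles at 6 months. In the old mice its level was 24.4, 23.7, 22.04 and 25.6 TPM in WT and 24.8, 23.1, 17.1 and 25.3 TPM in UBR4 mKO muscles. It was called with age in WT, at 0.38 (SE 0.13, limma adjusted p = 0.0387), with ranges that overlapped, was not called with the Y-linked covariate, and was at 0.11 (adjusted p = 0.358) with median-of-ratios scaling. Fbxo4, a receptor linked to cyclin D1, and Fbxl12 were called in no comparison of the TPM as deposited under the settings used throughout, at 0.36 and 0.40 for UBR4 mKO at 6 months, where array weights called both and a fit without a variance trend called Fbxl12. Fbxw4, or dactylin, was at 11.2 ± 1.39 TPM in WT and 9.73 ± 1.32 TPM in UBR4 mKO muscles at 6 months (SD, n = 4), the lowest fold change of all members in that comparison, at -0.20 (SE 0.11, limma adjusted p = 0.149). With median-of-ratios scaling it was called lower, at -0.55 (adjusted p = 0.00104), and UBR4 mKO replicate 4, at 11.7 TPM, lay apart from the other 3 mice of its group, at 8.94 to 9.34 TPM. Antisense exons overlap 21.4% of the exonic bases of Fbxw4 and 37.1% of those of Fbxl12.

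The sugar-chain receptors, a subfamily that includes proteins binding glycans on misfolded glycoproteins, were led by Fbxo6. Fbxo6 was at 18.8, 18.5, 17.5 and 17.2 TPM in WT and 20.6, 19.7, 21.97 and 21.97 TPM in UBR4 mKO muscles at 6 months, without overlap but not called, at 0.23 (SE 0.10, limma adjusted p = 0.0698). WT muscles of 24 months had 20.6, 23.6, 18.8 and 23.7 TPM and UBR4 mKO muscles of that age 19.97, 21.7, 26.8 and 23.1 TPM. Its neighbour on chromosome 4, Fbxo44, was in WT at 6 months at 2.58, 2.78, 2.65 and 2.46 TPM, against 3.43, 3.89, 3.98 and 3.802 TPM in UBR4 mKO. At 24 months Fbxo44 was at 3.92, 3.65, 3.37 and 3.56 TPM in WT and 3.62, 3.597, 3.87 and 3.41 TPM in UBR4 mKO muscles. The low values of Fbxo44 were thus those of the WT samples at 6 months, which lay below all other samples. The change was 0.51 (SE 0.10, limma adjusted p = 0.00114) for UBR4 mKO at 6 months and 0.45 (SE 0.10, limma adjusted p = 0.00493) for age in WT. Median-of-ratios scaling gave 0.17 (adjusted p = 0.255) and 0.19 (adjusted p = 0.245), with the same sign and neither called. Fbxo17 was at 1.88, 2.35, 1.74 and 2.04 TPM in WT and 2.08, 2.401, 2.698 and 2.43 TPM in UBR4 mKO muscles at 6 months. At 24 months it was at 3.27, 2.83, 2.71 and 4.48 TPM in WT and 2.81, 3.38, 3.35 and 3.27 TPM in UBR4 mKO muscles. Both ages were separated in both genotypes, and the change with age was 0.68 (SE 0.15, limma adjusted p = 0.00629) in WT and 0.40 (SE 0.15, limma adjusted p = 0.136) in UBR4 mKO. With median-of-ratios scaling the WT value was 0.42 (adjusted p = 0.0771) and the UBR4 mKO value 0.46 (adjusted p = 0.0529). Fbxo2 and Fbxo27, the other genes of the group, were under the minimum at no more than 0.394 and 0.270 TPM.

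Of 3 receptors known from nerve and synapse, Fbxl20 alone was called, in UBR4 mKO at 6 months, against 43.7% of all genes. Fbxl20, or SCRAPPER, controls the presynaptic protein RIM1. It was at 3.399, 4.71, 2.99 and 2.51 TPM in WT and 5.19, 4.92, 5.33 and 5.21 TPM in UBR4 mKO muscles at 6 months. Its values at 24 months were 5.499, 3.996, 5.07 and 4.53 TPM in WT and 5.23, 4.88, 2.21 and 5.4 TPM in UBR4 mKO muscles, with replicate 3 of the last group lower than all other samples. It was called higher in UBR4 mKO at 6 months, at 0.62 (SE 0.23, limma adjusted p = 0.0374), and at 0.28 (adjusted p = 0.304) with median-of-ratios scaling. Fbxo45, which works with the ligase PAM at the synapse, was at 8.398, 9.64, 8.1 and 6.54 TPM in WT and 8.11, 8.998, 10.4 and 9.43 TPM in UBR4 mKO muscles at 6 months. The 24-month values were 9.04, 8.13, 8.499 and 9.32 TPM in WT and 9.89, 8.595, 7.37 and 9.74 TPM in UBR4 mKO muscles. All groups of Fbxo45 overlapped, and its log2 fold change at 6 months was 0.18 (SE 0.12, limma adjusted p = 0.224). Part of a pseudogene, Gm15358, matches its transcript at 95% identity. Fbxl16 was the least expressed member tested, at a mean of 1.01 TPM. It reached the minimum through the 24-month groups, since the mean of the other 12 samples was 0.992 TPM without WT and 0.995 TPM without UBR4 mKO of that age, so its fold changes are not given, although it is counted among the 37.

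Fbxl17, which checks the pairing of BTB-domain proteins, was at 10.1, 12.6, 10.2 and 8.29 TPM in WT and 12.4, 11.9, 12.98 and 14.4 TPM in UBR4 mKO muscles at 6 months. In the old mice its level was 13.1, 11.8, 13.4 and 14.1 TPM in WT and 16.4, 15.5, 8.39 and 15.3 TPM in UBR4 mKO muscles. UBR4 mKO replicate 3 of 24 months stood apart. With all 16 samples no comparison was called, with 0.34 (SE 0.17, limma adjusted p = 0.112) for UBR4 mKO at 6 months and 0.36 (SE 0.17, limma adjusted p = 0.116) for age in WT, whereas without that replicate both were called, with adjusted p of 0.0174 and 0.0199. Without WT replicate 2 of 6 months both were called too, and array weights called these and age in UBR4 mKO.

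Receptors of chromatin and DNA damage held the member whose 6-month rise was called under all 3 scalings. Fbxo18, listed in GENCODE as Fbh1, is an F-box protein with a DNA helicase domain that limits recombination at damaged forks. It was at 5.42, 7.06, 5.898 and 4.42 TPM in WT and 7.67, 8.54, 8.99 and 9.57 TPM in UBR4 mKO muscles at 6 months, so that each UBR4 mKO sample was above each WT sample. At 24 months it was at 7.45, 7.04, 7.08 and 6.63 TPM in WT and 7.56, 6.701, 5.83 and 7.86 TPM in UBR4 mKO muscles. The change in UBR4 mKO at 6 months was 0.62 (SE 0.13, limma adjusted p = 0.00231), or 0.29 above the median gene. It was 0.27 (adjusted p = 0.021) with median-of-ratios scaling and 0.37 (adjusted p = 0.0431) after leaving out the mitochondrially encoded genes. At 24 months it was -0.02 (SE 0.13, limma adjusted p = 0.991), and the interaction was -0.64 (SE 0.18, limma adjusted p = 0.0561). With age in UBR4 mKO it was at -0.32 (SE 0.13, limma adjusted p = 0.18), and was called lower with median-of-ratios scaling, at -0.26 (adjusted p = 0.0338). Fbxo22, which removes histone demethylases of the KDM4 family, was at 13.2 ± 1.43 TPM in WT and 17.9 ± 1.13 TPM in UBR4 mKO muscles at 6 months (SD, n = 4). It was called higher there, at 0.45 (SE 0.09, limma adjusted p = 0.0023), and at 0.09 (adjusted p = 0.418) with median-of-ratios scaling. Exons of Nrg4 on the opposite strand overlap 15.4% of its exonic bases. Fbxo42, a receptor for p53, was called with age in WT, at 0.35 with an adjusted p at the threshold. That call was lost with the Y-linked covariate and with median-of-ratios scaling, which gave 0.08 (adjusted p = 0.482). In UBR4 mKO at 6 months Fbxo42 was called lower with median-of-ratios scaling alone, at -0.23 (adjusted p = 0.0289).

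Fbxw17 was the single member tested from the germ line and oocyte group, whose other 17 genes were under the minimum. At 6 months it was at 1.195, 1.02, 0.8304 and 0.699 TPM in WT and 1.33, 1.39, 1.25 and 1.499 TPM in UBR4 mKO muscles, and at 24 months at 1.88, 1.39, 1.58 and 1.86 TPM in WT and 1.87, 1.42, 1.903 and 1.97 TPM in UBR4 mKO muscles. The WT samples of 6 months were the lowest and overlapped with no other group. The change was 0.52 (SE 0.17, limma adjusted p = 0.0208) for UBR4 mKO at 6 months and 0.79 (SE 0.17, limma adjusted p = 0.00488) for age in WT. The age change in WT was called with median-of-ratios scaling, at 0.54 (adjusted p = 0.0234), and the genotype change was not, at 0.20 (adjusted p = 0.348). Values near 1 TPM are given on a scale to which 0.1 was added, which understates such changes slightly.

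Among the 12 members tested that were placed in no role group, 5 were called higher in UBR4 mKO at 6 months and 2 with age in WT, against the same 43.7% and 24.0% of all genes. Fbxl22, a receptor known from the Z-disc of heart muscle, had the largest genotype change at 6 months of the 37 members tested. At 6 months it was at 0.812, 1.09, 1.46 and 0.931 TPM in WT and 1.92, 2.55, 2.51 and 1.26 TPM in UBR4 mKO muscles, and at 24 months at 1.62, 1.14, 1.5 and 1.92 TPM in WT and 1.45, 1.25, 1.401 and 1.18 TPM in UBR4 mKO muscles. Of the UBR4 mKO samples of 6 months, 3 were above all other samples, whereas replicate 4 lay within the WT range. The change was 0.86 (SE 0.22, limma adjusted p = 0.00657) at 6 months and -0.19 (SE 0.22, limma adjusted p = 0.887) at 24 months, and 1.07 (adjusted p = 0.00201) at 6 months without replicate 4. With median-of-ratios scaling it kept its sign and was not called, at 0.53 (adjusted p = 0.118). Exons of Herc1 on the opposite strand overlap 8.06% of its exonic bases.

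Fbxo38, which removes the immune checkpoint protein PD-1 and is mutated in a hereditary motor neuropathy, was at 7.47, 8.06, 6.29 and 5.91 TPM in WT and 9.84, 10.1, 9.94 and 11.03 TPM in UBR4 mKO muscles at 6 months. The 24-month values were 9.14, 8.704, 9.05 and 10.3 TPM in WT and 9.55, 9.46, 7.02 and 9.48 TPM in UBR4 mKO muscles. Every UBR4 mKO sample of 6 months was above every WT sample of that age and every UBR4 mKO sample of 24 months. The change was 0.56 (SE 0.12, limma adjusted p = 0.0022) for UBR4 mKO at 6 months, 0.43 (SE 0.12, limma adjusted p = 0.019) for age in WT and -0.21 (SE 0.12, limma adjusted p = 0.348) for age in UBR4 mKO. Median-of-ratios scaling kept the call in UBR4 mKO at 6 months, at 0.21 (adjusted p = 0.0448), but not that with age in WT, at 0.15 (adjusted p = 0.174). With the mitochondrially encoded genes left out the 6-month call was lost, at 0.31 (adjusted p = 0.0552). Fbxo3, a receptor that acts on the F-box protein FBXL2, was at 21.2, 24.8, 19.4 and 18.01 TPM in WT and 25.99, 25.2, 26.9 and 27.3 TPM in UBR4 mKO muscles at 6 months. In the old mice its level was 23.5, 21.6, 24.2 and 22.7 TPM in WT and 27.4, 21.2, 18.2 and 25.2 TPM in UBR4 mKO muscles. Groups of 6 months did not overlap, and the change was 0.35 (SE 0.12, limma adjusted p = 0.0268), which became -0.01 (adjusted p = 0.966) with median-of-ratios scaling, a change of sign. Fbxo28 and Fbxl6 were called higher in UBR4 mKO at 6 months, at 0.32 and 0.39. With median-of-ratios scaling Fbxo28 turned to -0.03 (adjusted p = 0.844) and Fbxl6 to 0.04 (adjusted p = 0.839). Fbxw2 was called with age in WT, at 0.29, but not with the Y-linked covariate or with median-of-ratios scaling, where it was at 0.01 (adjusted p = 0.901). The remaining 6 of this set, Fbxo8, Fbxl14, Fbxo34, Fbxl15, Fbxo36 and Fbxl18, were called in no comparison of the TPM as deposited with all 16 samples and equal weights. When only the groups compared were fitted, Fbxl15 was called in UBR4 mKO at 6 months (adjusted p = 0.0399). Array weights called Fbxl18 in UBR4 mKO at 6 months, with age in WT and in the interaction, and Fbxo34 and Fbxo36 with age in WT. Without WT replicate 2 of 6 months, Fbxl18 was called in UBR4 mKO at 6 months and Fbxo34 with age in WT. Fbxl14, a receptor for the transcription factor SNAI1, and Fbxo34 were called lower in UBR4 mKO at 6 months with median-of-ratios scaling, at -0.26 (adjusted p = 0.0499) and -0.25 (adjusted p = 0.0446). Fbxo34 shares 96.1% identity with the pseudogene Gm7224 over 2085 bases, and exons of Cuedc2 overlap 25.6% of the exonic bases of Fbxl15.

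The other parts of the SCF ligase were examined as a list of 42 genes, of which 41 were in the table and 38 were tested. In UBR4 mKO muscles at 6 months, 20 were called higher and 1 lower, with a median of 0.29 against 0.33 over all genes, of which 43.7% were called higher. With median-of-ratios scaling, 2 were called higher and 7 lower, against 6.66% and 10.2% of all genes, and with the mitochondrially encoded genes left out 3 higher and 4 lower, against 9.07% and 5.87%. The total of 21 became 11 without WT replicate 4, 13 without WT replicate 3 and 12 without UBR4 mKO replicate 4 of 6 months, and 24 without UBR4 mKO replicate 3 of 24 months. The share of all genes called higher in these fits was 24.7%, 33.4%, 29.1% and 53.6%, in the same order. Cul7, the cullin that pairs with FBXW8, was at 0.845, 1.01, 1.13 and 0.672 TPM in WT and 1.66, 1.55, 1.75 and 1.59 TPM in UBR4 mKO at 6 months. It reached the minimum through the latter group alone, since the mean of the other 12 samples was 0.972 TPM, so its values are given as a description although it is among the genes called. Lmo7, an F-box protein with another kind of symbol, was at 8.76, 10.96, 8.697 and 6.75 TPM in WT and 16.5, 14.4, 16.9 and 17.5 TPM in UBR4 mKO at 6 months, a change of 0.90 (SE 0.18, limma adjusted p = 0.00186) and of 0.55 (adjusted p = 0.00845) with median-of-ratios scaling. The adaptor Skp1a and the cullin Cul1 were called higher at 0.30 and 0.33, about the median of all genes, and turned to -0.05 (adjusted p = 0.747) and -0.02 (adjusted p = 0.858) with median-of-ratios scaling. Rbx1, the RING subunit, was not called, at 0.04 (SE 0.08, limma adjusted p = 0.673), and with median-of-ratios scaling was lower, at -0.31 (adjusted p = 0.0384). Ube2r2, an E2 enzyme of SCF ligases, was the gene called lower, at -0.25 (SE 0.10, limma adjusted p = 0.043).

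Dcun1d1, which promotes the attachment of NEDD8 to cullins, was the partner with the largest interaction. It was at 7.63, 9.17, 6.69 and 5.56 TPM in WT and 8.48, 10.7, 11.8 and 12.2 TPM in UBR4 mKO muscles at 6 months. WT muscles of 24 months had 12.7, 10.4, 12.9 and 13.3 TPM and UBR4 mKO muscles of that age 7.98, 8.82, 6.49 and 11.8 TPM. The interaction was -1.08 (SE 0.25, limma adjusted p = 0.0234) and was -0.76 (adjusted p = 0.045) with median-of-ratios scaling. It was not called with the mitochondrially encoded genes left out, at -0.88 (adjusted p = 0.0592), nor without WT replicate 4 or UBR4 mKO replicate 3 of 6 months or WT replicate 1 or 4 of 24 months, with adjusted p from 0.0531 to 0.0557. At 24 months 0 of 38 partners were called between genotypes by limma, against 0.630% of all genes, and 1 partner, Dcun1d1, had an unadjusted p under 0.05, against 10.1% of all genes. With age, Dcun1d1, Dcun1d4, Cul1 and Cops7a were called higher in WT, against 24.0% of all genes. With median-of-ratios scaling Dcun1d1 was called higher and Rnf7, Dcun1d5 and Ube2r2 lower, against 4.44% and 5.33% of all genes. The count of 4 became 22 without WT replicate 2 of 6 months, against 45.7% of all genes called higher. It was 1 without WT replicate 3 or 4 of that age, against 11.9% and 8.41%. Without UBR4 mKO replicate 2 or 3 of 6 months it was 2, against 20.1% and 20.6%. Of the 24-month samples, leaving out WT replicate 1 or 4 gave 1, against 11.9% and 9.91%. Leaving out WT replicate 2 or 3 gave 2, against 18.3% and 21.5%, and UBR4 mKO replicate 3 gave 17, against 37.6%.

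Markers of other cells and of muscle state moved with some of these comparisons. Over all genes tested, 43.7% were called higher in UBR4 mKO at 6 months. With age in WT 24.0% were called higher and 114 of 10628 genes lower. With age in UBR4 mKO 260 were called higher and 409 lower. In the interaction 4.58% were called lower. The marker counts below are from the TPM as deposited. In WT and UBR4 mKO muscles of 6 months, the 6 leukocyte markers summed to 13.2 to 19.5 against 45.2 to 154 TPM, and the 3 of them tested were called higher. The 5 denervation markers summed to 6.77 to 10.4 against 22.6 to 29.6 TPM, with 4 of 4 tested called higher, while Chrng was at 0 in 3 of the 4 WT samples. They were also higher with age in WT, at 20.4 to 31.0 TPM, with 4 of 4 called. In that comparison 2 of 3 leukocyte and 2 of 4 Schwann cell markers were also called higher, 4 of 7 skeletal muscle markers higher and 2 lower, and 2 of 5 slow and type 2A fiber and 1 of 4 fibroblast markers lower. With age in UBR4 mKO, 2 of 3 endothelial, 2 of 4 fibroblast and 2 of 5 slow and type 2A fiber markers were called lower, and 2 of 7 skeletal muscle markers were called higher and 2 lower. Between WT and UBR4 mKO at 6 months, the 3 endothelial markers summed to 59.9 to 83.0 against 94.5 to 102 TPM, with 2 of 3 called higher, and 3 of 7 skeletal muscle, 2 of 4 fibroblast and 1 of 5 slow and type 2A fiber markers were called higher. Of adipocyte, Schwann cell and blood markers, 0 were called between the genotypes at 6 months. At 24 months no marker of any list was called between the genotypes, although leukocyte markers summed to 25.2 to 53.3 TPM in WT and 64.1 to 276 TPM in UBR4 mKO. In the interaction, 2 of 4 denervation, 1 of 7 skeletal muscle and 1 of 5 slow and type 2A fiber markers were called lower, the direction of Fbxo38 and Fbxo44. The part of these shifts in the F-box values was not tested. In whole muscle, more cells of a type and more RNA per cell cannot be told apart.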

How the data were processed

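RNA of tibialis anterior muscles was sequenced as paired ends. Reads were trimmed and mapped to GRCm38 in CLC Genomics Workbench by the authors, who deposited 1 table of TPM per gene and sample. The kit is named differently in the labels and in the methods, and the use of strand, the annotation release and the treatment of reads that fit several genes are not given in the sources used here. TPM keep no depth, so no counting error can be given.

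Genes with a mean of at least 1 TPM (10628 of 47643) were tested as log2(TPM + 0.1) with limma 3.58.1 (R 4.3.3, trend) on all 16 samples, with 1 coefficient per group, moderated tests of each contrast and Benjamini-Hochberg adjustment over all genes tested at 0.05. A fold change on this scale understates the change of low genes. A model for log values was used in place of the Kruskal-Wallis test with Dunn's test of the study, which was run as an alternative, since that test cannot fit the interaction. No label says that the mice of a group are littermates or separate batches, so p-values measure the spread between these samples. The members and lists were chosen with earlier results of these data known. Values for every sample are given for the 5 members with the highest mean, the members with the 5 largest called changes in each comparison, and the first tested member of each role group. First here means the order in which a group was listed, not the order of level. The values of 1 tested member are not reported here, although the counts include it. On simulated data for UBR4 mKO against WT at 6 months with 10628 genes, 96% of 200 genes changed by 1.5 on the log2 scale were recovered and 4% of calls were false. The members called in that comparison had smaller values, from 0.32 to 0.86, and 43.7% of all genes were called higher. Recovery under those conditions was not tested.

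Gene positions came from GENCODE vM21, and similar transcripts were searched with minimap2 2.31, keeping matches of at least 200 bases and 90% identity. Figures were drawn with matplotlib 3.10.9 under Python 3.11.15. Alternatives covered the pseudocount, the filter, 2 other scalings, the samples fitted, the replicate block, array weights, the trend and a Y-linked covariate added after seeing the data.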

Additional observations from a re-analysis of the deposited data

Results flagged for a closer look

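In 8 of 148 groups of 4 samples of the genes examined, the members reported here and Ubr4, 1 sample lay far from the other 3 by Dixon's criterion at the 95% level, where about 7.4 groups would be so by chance. UBR4 mKO replicate 3 at 24 months was low in Fbxl17, at 8.39 TPM against 15.3 to 16.4 TPM in the other 3 mice, in Fbxl20, at 2.21 against 4.89 to 5.40 TPM, and in Fbxo38, at 7.02 against 9.46 to 9.55 TPM. UBR4 mKO replicate 4 at 6 months was high in Fbxw4, at 11.7 against 8.94 to 9.34 TPM, and in Fbxw8, at 11.1 against 8.02 to 8.31 TPM. Fbxl12 in WT replicate 1 at 24 months was at 2.32 against 1.84 to 1.89 TPM. Fbxl15 in WT replicate 1 at 6 months was at 3.57 against 2.75 to 2.79 TPM. Fbxo9 in WT replicate 2 at 24 months was at 24.2 against 29.6 to 30.3 TPM.

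The effect of UBR4 loss differed between the ages for Fbxo38, with an interaction of -0.638 on the log2 scale, and for Fbxo44, with -0.511, in the TPM as deposited, where the median gene stood at -0.312. Neither was called with median-of-ratios scaling.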

How the results depend on the processing

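The count of 12 members called in UBR4 mKO at 6 months became 4 without the mitochondrially encoded genes and 6 with Kruskal-Wallis and Dunn's test, against 9.07% of all genes higher and 5.87% lower, and 23.1% higher. With age in WT, 9 became 2 with median-of-ratios scaling, 4 without the mitochondrially encoded genes, 27 with array weights and 0 with Dunn's test, while the share of all genes called higher went from 24.0% to 4.44%, 5.82% and 59.0%. Dunn's test called 0 of all genes with age in either genotype. With age in UBR4 mKO, 1 became 3 with median-of-ratios scaling, 6 with array weights, against 16.4% of all genes, and 0 with Dunn's test. The interaction count of 2 became 1 with no filter, which was Fbxo39 and neither of the earlier pair, 0 with median-of-ratios scaling, 0 without the mitochondrially encoded genes, 0 with the replicate block, 10 with array weights, against 25.6% of all genes called lower, and 1 with the Y-linked covariate. Of all genes, 288 of 21223 were called lower with no filter and 406 of 10628 with the Y-linked covariate. With median-of-ratios scaling Fbxo28 was at -0.0267 and Fbxo3 at -0.00636 in UBR4 mKO at 6 months, both reversed in sign, since that scaling moves the median of all genes from 0.33 to -0.02. The cause of the other shifts was not tested. Leaving out 1 sample at a time gave 5 to 18 members in UBR4 mKO at 6 months, 0 to 0 at 24 months, 4 to 22 with age in WT, 1 to 2 with age in UBR4 mKO and 0 to 8 for the interaction. WT replicates 4 and 2 of 6 months gave the extremes at 6 months and with age in WT. The share of all genes called higher was 24.7% and 57.8% at 6 months and 8.41% and 45.7% with age in WT. Over all genes, 4767 were called in UBR4 mKO at 6 months, 1790 with median-of-ratios scaling, 1586 without the mitochondrially encoded genes and 2485 with Dunn's test. Of the values of called members under alternatives other than left-out samples, 205 kept direction and call, 77 lost the call and 2 reversed.

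With the replicate block the counts were 10, 0, 7, 1 and 0 in the order above, and over all 10628 genes 4236, 38, 2023, 532 and 284. Samples that share a replicate number shared little else: the correlations of their deviations ran from -0.35 to 0.181, 4 of 24 pairs were over 0.1, and 2 of 16 samples correlated best with a sample of their own number, so the numbers were not taken to pair the mice. TPM give no read depth, so the precision of low genes is unknown.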

Other observations

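Some F-box genes under the minimum of 1 TPM, chosen here after their values were seen, were called higher in UBR4 mKO at 6 months when genes with a mean of at least 0.1 TPM were tested, where 37.7% of all genes were called higher. Fbxl19 was at 0.45 on the log2 scale (limma adjusted p = 0.0361), Fbxl2, a receptor that FBXO3 acts on, at 0.77 (adjusted p = 0.0159) and Fbxl8 at 0.69 (adjusted p = 0.025). Fbxw10 reached 0.1 TPM through the UBR4 mKO groups, with a mean of 0.0824 TPM in the other samples without that of 6 months and 0.0989 TPM without that of 24 months, and its call there is not given. With no filter, where 22.9% of all genes were called higher, Fbxl2 and Fbxl8 were also called, Fbxw10 was called at 0.93 (adjusted p = 0.0104), Fbxl19 was not, and Fbxl13, at 0.93 (adjusted p = 0.0147), and Fbxo39, at 0.71 (adjusted p = 0.00226), were called as well. Fbxo39 was then also called in the interaction, at -0.83 (adjusted p = 0.0413). These genes lay near the 0.1 TPM added before taking logs. At 6 months the means in WT and UBR4 mKO were 0.016 and 0.122 TPM for Fbxl13 and 0.013 and 0.085 TPM for Fbxo39. For Fbxw10 they were 0.054 and 0.193 TPM.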
